A study of Homo sapiens with 12 samples.

Results

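The contrast described here is the co-culture difference in TYMS knockout cells minus the co-culture difference in control cells, taken gene by gene over 12 of the 12 libraries of the series. It is an interaction: it is positive where co-culture raised a gene more in knockout than in control cells, and negative where it lowered it more. All libraries were labelled as A549, an established human lung adenocarcinoma line, and were taken 14 days after transduction. The 4 groups of 3 libraries were cells with the non-targeting guide gNTC1 grown alone (lone control), such cells in co-culture (co-cultured control), cells in which Cas9 was directed at TYMS (labelled TS-KO, guide gTYMS2) grown alone (lone knockout), and such knockout cells in co-culture (co-cultured knockout). All cells had thus been transduced and all carried a guide, 1 guide per genotype. The series text names parental A549 as the cells that the knockout was co-cultured with, and describes the proliferation of the knockout as restored there. The sources used here do not give the partner of the control cells, nor any separation of the cells ahead of RNA isolation. Nothing in the labels says whether the replicates came from separate cultures, so p-values measure only the spread between these libraries, which may be technical.

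TYMS encodes thymidylate synthase, the enzyme that makes thymidylate, the DNA building block that holds thymine. Cells without it depend on thymidine salvage or on thymidylate from elsewhere, and cells starved of it stall in DNA replication. Chemokines, cytokines and acute-phase proteins are secreted alarm signals that the transcription factor NF-kB controls in airway epithelium. Immediate-early genes such as EGR1 and FOS encode transcription factors that are switched on within minutes by growth factor and MAP kinase signalling.

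Expression is given as CPM, counts per 1000000 counts after TMM scaling of the library sizes, and differences as log2 values from the edgeR fit, in which an adjusted p under 0.05 counts as a call. CPM compares libraries within a gene and not genes with each other. Library totals ranged from 14921371 to 35723762 counts, and the biological coefficient of variation was 22.1%. TYMS itself stood at 20.3, 21 and 21.4 CPM in the lone and 11.4, 11 and 10.7 CPM in the co-cultured knockout, against 90.3, 101 and 95.2 CPM and 90.5, 94.2 and 95.7 CPM in the corresponding control groups. It shares exon positions with ENOSF1 and TYMSOS, and the strand setting of the counting is not given in the sources used here. Mitochondrial genes took 4.42%, 4.39% and 3.65% of counts in the lone and 2.73%, 2.28% and 3.74% in the co-cultured knockout, so that those groups overlapped through replicate 3 of the co-cultured knockout alone, and 2.63% to 4.05% in the control libraries. The 100 highest genes took 23.6% to 27.7%. The part of these shares in the results was not tested.

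The groups differ in more than TYMS, and this touches every result. A549 is known for a homozygous deletion of CDKN2A and MTAP on chromosome 9. The libraries labelled control carried CDKN2A at 54.7 to 116 CPM and MTAP at 43.8 to 79.5 CPM, which goes against that deletion. The knockout libraries held CDKN2A at 0 to 0.119 CPM, CDKN2B at 0 CPM and MTAP at 0.302 to 0.647 CPM. Epithelial genes differed likewise: EPCAM stood at 94.4 to 119 CPM in the 6 libraries labelled control and at 0.149 to 0.913 CPM in the 6 knockout libraries, CLDN7 at 224 to 362 CPM against 0.0498 to 0.417 CPM, and ESRP1 at 31.0 to 49.0 CPM against 0.0498 to 0.224 CPM. Of 15 genes listed as present in A549, among them those of its NRF2 programme, 14 stood above 5 CPM in all 12 libraries, whereas UGT1A6 stood at 0 to 0.383 CPM in the libraries labelled control and at 0.697 to 1.16 CPM in the knockout. Their levels differed too, with AKR1B10 at 493 to 733 CPM in the libraries labelled control and 1897 to 2508 CPM in the knockout. Knockout status and these differences of the cells cannot be told apart in this design. Co-culture differences within the knockout do not use the levels of the libraries labelled control, although the fit takes its spread from all 12 libraries. They are shown as CPM of the knockout libraries for many named genes and as counts of calls for most lists. Other genes are given by the interaction alone, which does use the levels of the libraries labelled control.

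**Figure D1:**
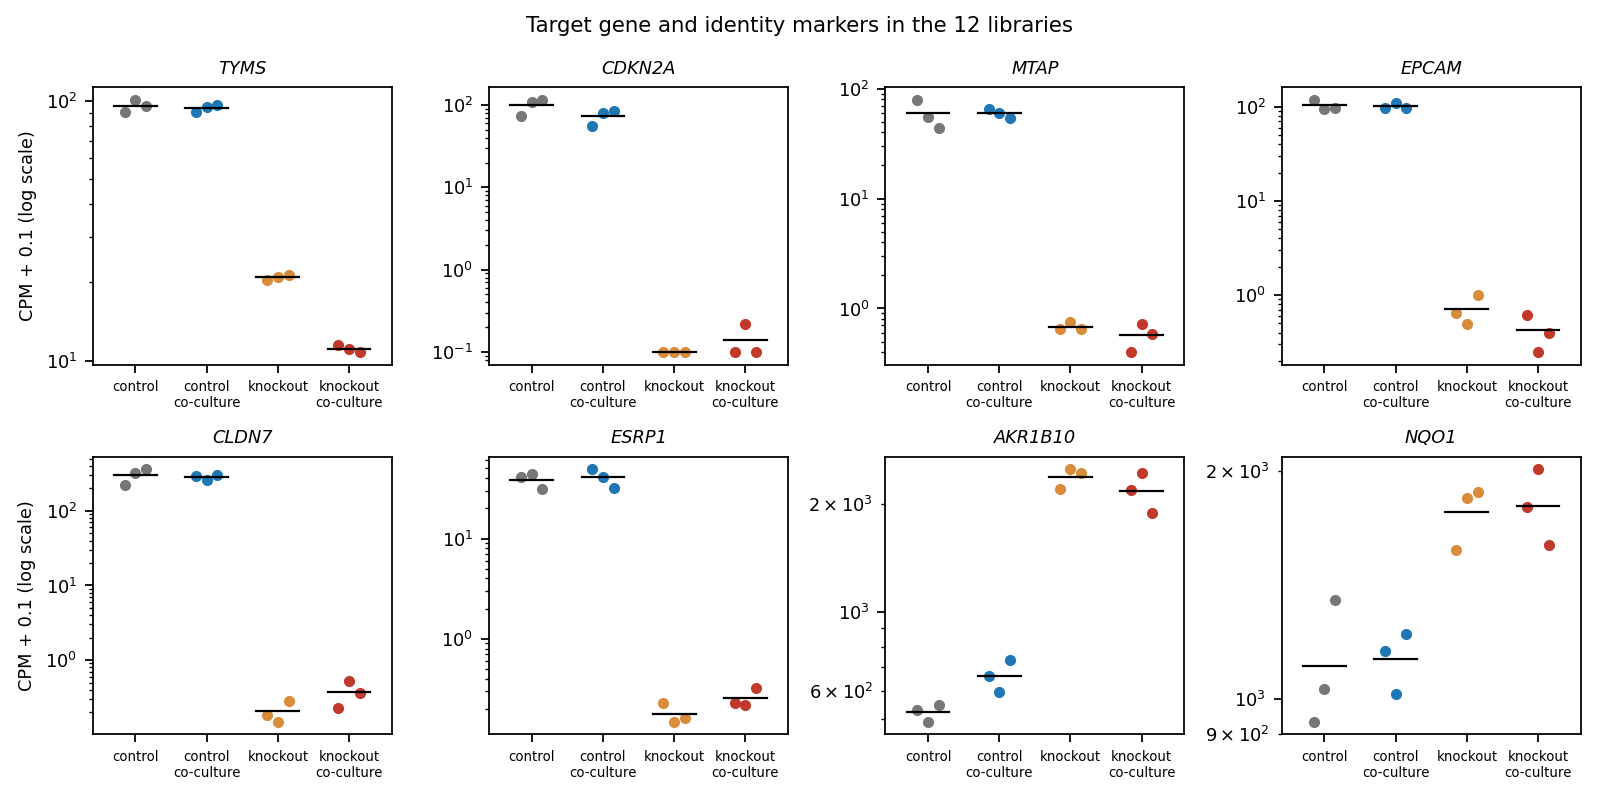
TYMS and 7 identity markers in the 12 libraries, as CPM plus 0.1 on log axes that differ between panels. Each point is 1 library and each bar the mean of 3. TYMS was 20.3 to 21.4 CPM in the lone and 10.7 to 11.4 CPM in the co-cultured knockout, and CDKN2A, MTAP, EPCAM, CLDN7 and ESRP1 were near 0 in all 6 knockout libraries.

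RNA from other cells was looked for in the same libraries. Of the 9 epithelial markers, which were all higher in each library labelled control than in each co-cultured knockout library, 4 (EPCAM, CLDN7, ESRP1 and ESRP2) stayed under 1 CPM in the latter, as did CDKN2A, and TYMS was lower there than in the lone knockout. The other 5 epithelial markers were present in the knockout. KRT19 stood at 215, 249 and 301 CPM in the lone and 486, 546 and 305 CPM in the co-cultured knockout and CDH1 at 19.0, 18.4 and 15.1 CPM and 21.9, 21.8 and 28.1 CPM, both without overlap, while CLDN4 was lower without overlap, at 11.1, 11.9 and 14.1 CPM and 8.67, 8.89 and 6.01 CPM. Of the 9 markers, 2 were higher and 2 lower in co-culture without overlap, while 31.5% of all genes tested did not overlap in this comparison. The 9 summed to 5071 to 7066 CPM in the lone and 3968 to 6165 CPM in the co-cultured knockout, against 9852 to 16109 CPM in the lone control, and 0 of them were called in the interaction or the knockout arm by edgeR. Cells of the same type as the knockout would not be visible by these markers. Of the 8 blood cell markers, CD3E had no count in any library and PTPRC, which defines leukocytes, reached at most 0.0620 CPM. The summed level of the 8 was 4.44 to 5.05 CPM in the lone and 7.72 to 10.6 CPM in the co-cultured knockout, nearly all of it CD14, CD68 and ITGAM. CD14, a receptor for bacterial lipopolysaccharide, was the 1 member called in the interaction, with 0.889, 0.797 and 0.913 CPM in the lone and 2.76, 4.23 and 2.76 CPM in the co-cultured knockout. CD68 also rose without overlap, from 0.931, 0.896 and 0.852 CPM to 2.8, 3.58 and 2.57 CPM. ITGAM overlapped, at 2.58, 3.24 and 3.29 CPM and 2.59, 2.59 and 2.28 CPM. Of 3 blood markers tested, 2 were called higher in the knockout arm, against 5.97% of all genes. Of the 9 fibroblast markers, COL1A2 and DCN were at or under 0.0996 CPM everywhere, and the list summed to 54.2 to 61.0 CPM in the lone and 49.8 to 66.4 CPM in the co-cultured knockout. The 6 endothelial markers summed to under 1 CPM in every knockout library. In such bulk libraries, fewer cells of a type and less RNA per cell cannot be told apart.

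Co-culture left the control cells almost without a response that these libraries could resolve, and changed many genes in the knockout. In the control, 0 of 16768 genes tested (0%) were called by edgeR, 540 genes (3.22%) had an unadjusted p under 0.05, and DESeq2 also called 0 with 504 genes at an unadjusted p under 0.05. In the knockout, 1907 genes (11.4%) were called, or 664 with the 2 knockout groups fitted alone. Of the 1907, 1001 (5.97% of the genes tested) rose and 906 (5.4%) fell with co-culture. In this arm 5053 genes (30.1%) had an unadjusted p under 0.05. Without replicate 1, 2 or 3 of the lone knockout the knockout arm called 603, 654 and 1026 genes, and without replicate 1, 2 or 3 of the co-cultured knockout 536, 819 and 5680. The median size of the co-culture difference was 0.17 log2 units in the control and 0.37 in the knockout. Differences of over 1 log2 unit, a 2-fold change, were fitted for 431 genes in the control and for 2333 in the knockout. The median half-width of the 95% interval was 0.57 log2 units in the control and 0.56 in the knockout. Both arms had 3 libraries a group and shared 1 estimate of the spread, so these widths do not compare the spread within each arm. A p that misses the threshold does not show that nothing changed, so the intervals were read as well. For 11381 genes (67.9%) the 95% interval of the control difference lay wholly within 1 log2 unit of 0, and for the other genes a 2-fold change in control cells was not excluded at this precision.

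The 4 genes with the smallest p in the control arm were all higher in co-culture. NEFL, the neurofilament light chain, stood at 0.806, 1.05 and 0.765 CPM alone and at 1.6, 1.88 and 1.96 CPM in co-culture. LINP1, a long non-coding RNA, stood at 3.1, 3.14 and 3.72 CPM and 6.12, 5.66 and 6.77 CPM. GAS5, a non-coding host gene of small nucleolar RNAs, stood at 74.3, 63.1 and 60.0 CPM and 109.6, 91 and 93.2 CPM. The readthrough gene DTX2P1-UPK3BP1-PMS2P11 stood at 0.248, 0.308 and 0.219 CPM and 0.891, 0.727 and 1.06 CPM, and its exons overlap those of the genes it joins. The libraries of the 2 conditions did not overlap in any of the 4, with log2 differences of 1.06, 0.89, 0.57 and 1.77, and for each the edgeR adjusted p was 1. Of all genes tested, 1239 (7.39%) had control libraries that did not overlap between the 2 conditions, against 5285 (31.5%) in the knockout.

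The interaction itself tests whether the 2 arms differed. It called 301 genes (1.8%), 253 with a higher (1.51%) and 48 with a lower (0.286%) value in the knockout arm than in the control arm, and 3135 genes had an unadjusted p under 0.05. It is the less precise contrast, with a median half-width of 0.80 log2 units, since it sums the error of 4 groups. Of the 1907 genes called in the knockout arm, 298 were also called in the interaction. For the other 1609 a difference between knockout and control cells was not shown, although none of them was called in the control. Genes that responded in the knockout only were defined as those called in the interaction and, with the same sign, in the knockout arm, whose control interval lay wholly within 1 log2 unit of 0. This held for 233 genes (1.39%), 192 higher (1.15%) and 41 lower (0.245%). The number was 2975 without replicate 3 of the co-cultured knockout, 201 without replicate 3 of the co-cultured control, 239 without replicate 1 of the lone control, and 87 to 153 without any other single library. Among the 253 higher genes the median was 1.77 for the interaction, 1.58 in the knockout arm and -0.15 in the control arm. The 48 lower genes had medians of -1.17, -1.05 and 0.08 in the same order. The arms had opposite signs in 185 of the higher and 33 of the lower genes, and the control difference was the larger in size in 6 genes.

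**Figure D2:**
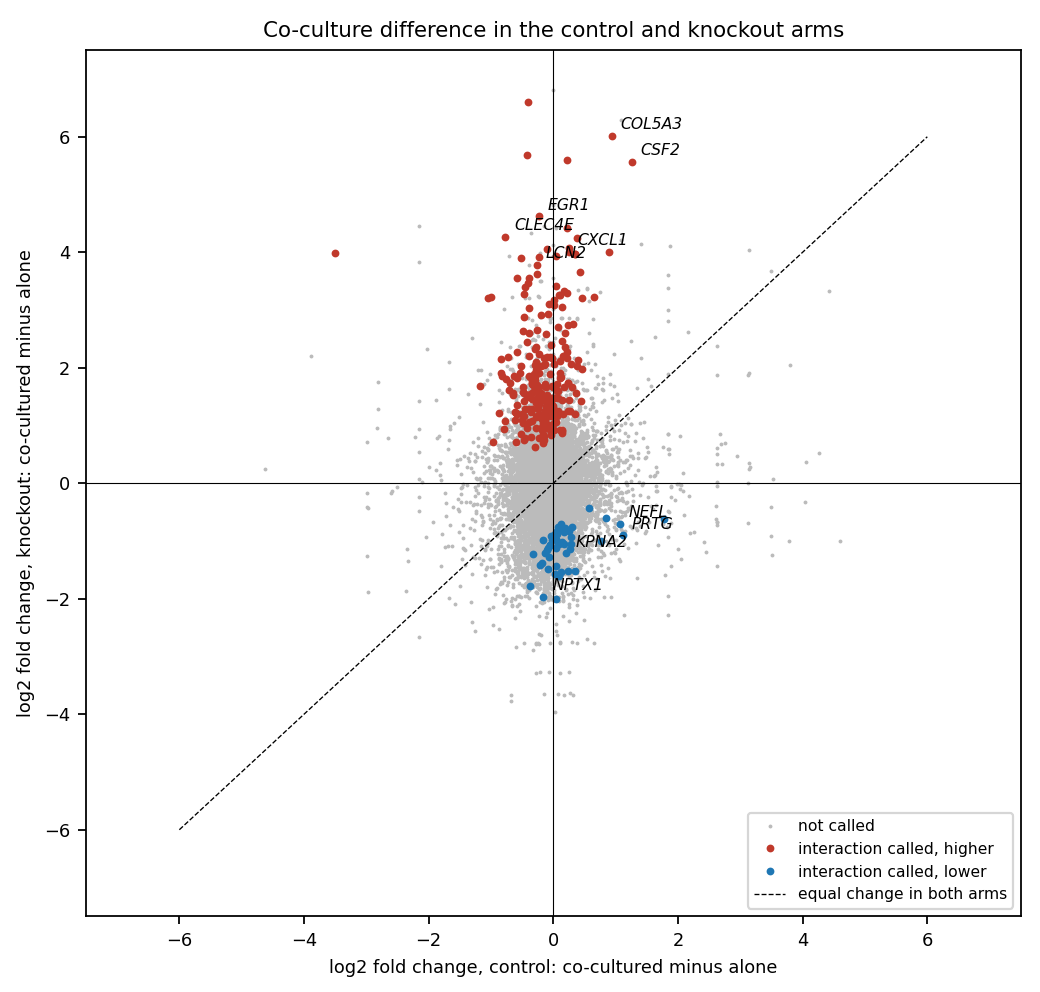
Co-culture difference of each of 16768 genes in the control arm (horizontal axis, log2) and in the knockout arm (vertical axis, log2). Genes called in the interaction are red where higher (253) and blue where lower (48). Most lie along the vertical axis. The control interval lay within 1 log2 unit of 0 for 192 of the higher and 42 of the lower genes.

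The counts rested strongly on 1 library and on a property of the transcripts. Without replicate 3 of the co-cultured knockout the interaction called 3623 genes, 1201 higher and 2422 lower, among them all 301. It called 156 without replicate 2 of the lone control, 161 without replicate 3 of the lone control, 148 without replicate 1 of the co-cultured control, 119 without replicate 2 of the co-cultured control, 159 without replicate 1 of the lone knockout, 136 without replicate 2 of the lone knockout, 173 without replicate 3 of the lone knockout, 129 without replicate 1 of the co-cultured knockout and 190 without replicate 2 of the co-cultured knockout. Without replicate 1 of the lone or replicate 3 of the co-cultured control it was 343 and 311. The log2 values followed the GC content of the transcript across 16505 genes, with rank correlations of 0.535 for the interaction, 0.433 for the knockout arm and -0.380 for the control arm. This is a description across genes, which share libraries. The median GC content was 56.3% in the 253 higher genes, 50.5% in the 48 lower genes and 50.9% in all genes. Deviations of single libraries from their group mean followed GC most in replicates 2 and 3 of the co-cultured knockout, in opposite directions, at 0.754 and -0.766. The other groups followed it too, with replicate 1 at -0.650 to -0.511, replicate 2 at -0.206 to 0.131 and replicate 3 at 0.564 to 0.620. With a GC offset per library, the interaction called 1426 genes, 749 higher and 677 lower, among them 284 of the 301. The share of calls that were higher thus moved from 84.1% to 52.5%, and the part of GC in any single result was not tested beyond these offsets.

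**Figure D3:**
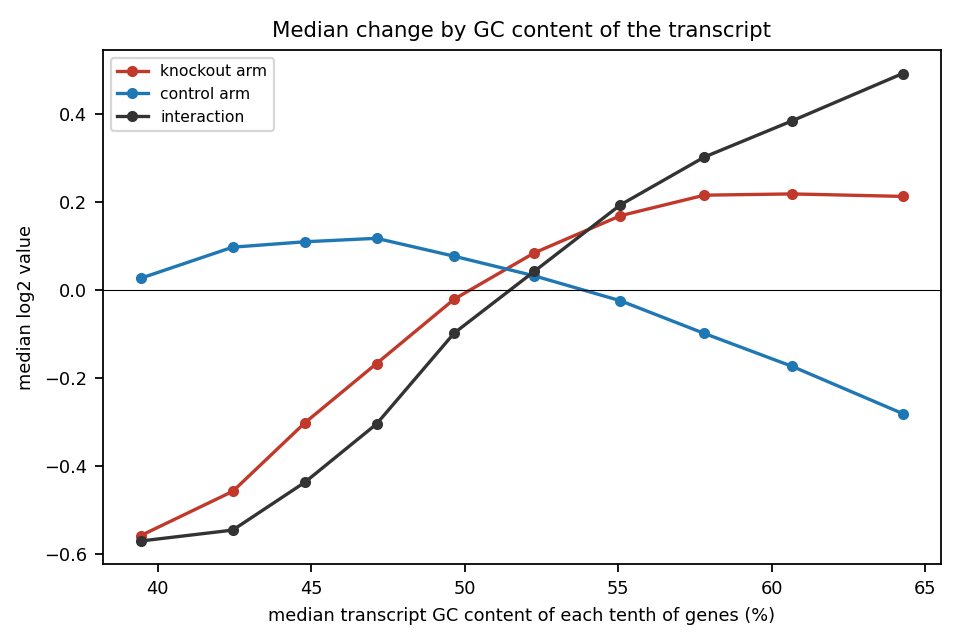
Median log2 value in 10 equal bins of the genes by GC content of the transcript (horizontal axis, percent), for the knockout arm, the control arm and the interaction. The interaction median runs from -0.57 in the lowest to 0.49 in the highest bin.

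Where the called genes started and ended in level was read against the libraries labelled control. In 170 of the 253 higher genes (67.2%) the lone knockout lay below each lone control library, against 31.5% of all genes tested. In co-culture, 122 of the 253 (48.2%) lay above each of the 6 control libraries, against 23.2% of all genes, and 68 (26.9%) remained below each of them, against 24.1%. Of the 48 lower genes, 32 (66.7%) lay above each lone control library in the lone knockout, against 33.8% of all genes. In co-culture 20 (41.7%) of these 48 lay below all 6 control libraries and 21 (43.8%) remained above all 6. These counts share the lone knockout libraries with the contrast that chose the genes and are given as a description. EGR1 and CXCL1 are examples of the 2 patterns: EGR1 moved part of the way towards the control level, and CXCL1 passed it.

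With all 12 libraries and no offsets, inflammatory secreted factors held the most interaction calls of the 23 gene lists examined. With GC offsets mitosis held more, at 18 against 14, as it did without replicate 3 of the co-cultured knockout, at 18 against 17. Of 23 members tested out of 27, 13 had a higher interaction and 0 a lower one, with a median of 2.59 against 0.01 for all genes. In the knockout arm 18 rose and 0 fell, and in the control arm 0 were called. Over all genes tested, 1.51% had a higher and 0.286% a lower interaction, and 5.97% rose and 5.4% fell in the knockout arm. The median was 2.49 with the 3 members that had 3 counts or fewer in a group placed at that floor. Members called in the interaction numbered 10 to 17 when any single library was left out and 14 with the GC offsets. The control interval lay within 1 log2 unit of 0 for 11 of the 23 members tested. Of the 13 called, 6 met that bound and so responded in the knockout only as defined above (CXCL1, CXCL2, CXCL3, CXCL5, CXCL8 and CCL2). In 11 of the 13 each co-cultured knockout library lay above all 6 control libraries.

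Of the 13 called members, 6 are CXC chemokines, which attract neutrophils and are encoded in a cluster on chromosome 4. CXCL1 (ENSG00000163739, chromosome 4, 73869393 to 73871242) stood at 80.3, 66.7 and 62.2 CPM in the lone and 1055, 1228 and 1074 CPM in the co-cultured knockout, against 152, 136 and 135 CPM and 133, 179.7 and 190.5 CPM in the lone and co-cultured control. The interaction was 3.75, SE 0.23, edgeR adjusted p = 4.96e-06, with a control difference of 0.25 (95% interval -0.09 to 0.59). All lone knockout libraries were below, and all co-cultured ones above, every control library. CXCL8 (ENSG00000169429, chromosome 4, 73740506 to 73743716), the classical neutrophil attractant interleukin-8, stood at 51.3, 53.1 and 52.6 CPM and 868, 688 and 897 CPM in the knockout and at 74.4, 37 and 53.3 CPM and 66.7, 73.5 and 69.5 CPM in the control, an interaction of 3.62, SE 0.30, edgeR adjusted p = 6.68e-05. Its lone knockout level lay inside the range of the lone control. CXCL3 went from 12.7, 12.2 and 9.31 CPM to 108, 115 and 103 CPM in the knockout (interaction 3.14, SE 0.22, edgeR adjusted p = 1.22e-05). CXCL2, CXCL5 and CXCL6 had interactions of 3.16, 1.95 and 4.41, but CXCL6 reached no more than 1.27 CPM in co-culture and had 4 counts in the lone knockout. CXCL1, CXCL2 and CXCL3 are close relatives, so reads could be split between them.

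Of the CC chemokines, CCL2, which attracts monocytes, stood at 62.4, 62.3 and 60.7 CPM in the lone and 228, 226 and 273 CPM in the co-cultured knockout (interaction 1.51, SE 0.22, edgeR adjusted p = 0.00376). CCL20, which attracts dendritic cells and some T cells, was low throughout, at no more than 1.12 CPM. Among growth factors of white blood cells, CSF2 (GM-CSF, ENSG00000164400, chromosome 5, 132073790 to 132076170) stood at 0.127, 0.249 and 0.0608 CPM in the lone and at 6.34, 7.63 and 7.99 CPM in the co-cultured knockout, and its interaction was 4.31, SE 0.63, edgeR adjusted p = 0.0039. In the control CSF2 stood at 0.248, 0.678 and 0.273 CPM and 0.831, 0.842 and 1.18 CPM, a difference of 1.26 (95% interval 0.38 to 2.14), so it did not meet the bound. CSF3 (G-CSF) had 2 counts in the 3 lone knockout libraries together and 3.45, 3.88 and 4.1 CPM in co-culture, so its fold change has no firm base. IL1B, the secreted interleukin-1 beta, went from 1.23, 0.747 and 1.34 CPM to 13.5, 14 and 14.6 CPM in the knockout and stayed at or under 0.383 CPM in the control (interaction 3.24, SE 0.70, edgeR adjusted p = 0.0362). IL6 went from 2.2, 1.69 and 1.58 CPM to 17.3, 18.4 and 15.6 CPM (interaction 2.57, SE 0.52, edgeR adjusted p = 0.0263). Members not called included LIF and IL11, whose interactions of 0.78 and 0.97 had edgeR adjusted p-values of 0.115 and 0.127.

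The promoters of CXCL1 and CXCL8 are shown because both genes rose together, one with an exact match to the NF-kB motif used and the other to the AP-1 motif used. RefSeq windows (GRCh38.p14) from 250 bases before to 50 after the gene start were matched by symbol for 11 of the 13 called members, and 8 of them (72.7%) held the NF-kB motif on either strand. Of the promoters of all genes tested, 801 of 11851 (6.76%) held it, and over all promoters of the table the number was 1562 of 27305 (5.72%). The 8 include CXCL1, CXCL2, CXCL3, CXCL5 and CXCL6, which are related in sequence, so they are not independent cases. Over the 188 promoters matched for the higher genes the share was 13.3%, and over the 38 matched for the lower genes 13.2%. Capitals mark the NF-kB motif GGGRNWYYCC in CXCL1, where 2 matches start 1 base apart and overlap, and the AP-1 motif TGANTCA in CXCL8. The CXCL8 window holds no exact match to the NF-kB letters used, but its stretch tggaatttcc differs from them only in the first letter. Windows are given 5′ to 3′ on the plus strand, CXCL1 at chr4:73869143-73869442 and CXCL8 at chr4:73740319-73740618. The AP-1 motif stood in 10.1% of the higher, 2.63% of the lower and 4.85% of all tested promoters. A match is a description of letters and not a binding site, and a missing match does not show that a site is absent.
CXCL1: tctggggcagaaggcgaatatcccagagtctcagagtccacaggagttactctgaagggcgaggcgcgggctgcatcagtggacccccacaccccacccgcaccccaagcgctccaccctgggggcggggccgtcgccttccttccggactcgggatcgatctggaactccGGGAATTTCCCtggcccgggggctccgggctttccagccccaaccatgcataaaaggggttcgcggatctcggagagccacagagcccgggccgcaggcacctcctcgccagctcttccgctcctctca
CXCL8: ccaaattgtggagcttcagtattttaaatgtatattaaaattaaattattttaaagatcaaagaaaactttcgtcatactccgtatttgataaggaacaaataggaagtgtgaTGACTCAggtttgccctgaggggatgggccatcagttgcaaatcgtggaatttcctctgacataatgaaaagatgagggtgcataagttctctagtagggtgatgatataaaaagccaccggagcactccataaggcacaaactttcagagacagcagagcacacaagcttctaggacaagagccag

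No NF-kB subunit was called in the interaction, while 7 of its inhibitors and targets were. NF-kB is held in the cytoplasm by inhibitors such as NFKBIA, which are themselves among its target genes. Of 20 members tested out of 21, 7 had a higher interaction and 0 a lower one (median 0.80), 10 rose in the knockout arm and 0 were called in the control arm. Among all genes tested the interaction was higher in 1.51%, and 5.97% rose in the knockout arm. GC offsets gave 10 higher and 0 lower calls and a median of 0.44. The median GC content of this list was 57.5%, against 50.9% in all genes. In the NF-kB subunits and feedback list higher calls numbered 4 without replicate 2 of the lone control, replicates 1 and 2 of the co-cultured control, replicates 2 and 3 of the lone knockout, or replicate 1 of the co-cultured knockout; 13 without replicate 3 of the co-cultured knockout; lower calls, otherwise 0, numbered 2 without replicate 3 of the co-cultured knockout. All 7 met the bound on the control. ICAM1 (ENSG00000090339, chromosome 19, 10270835 to 10286615), an adhesion receptor for leukocytes, stood at 1.61, 2.09 and 1.34 CPM in the lone and 14.2, 15.3 and 13.8 CPM in the co-cultured knockout, with 11, 11.4 and 12.8 CPM and 8.67, 10.3 and 16.6 CPM in the control (interaction 3.07, SE 0.36, edgeR adjusted p = 0.00104). Its exons overlap those of ICAM4-AS1. ZC3H12A, an RNase that degrades cytokine messengers, stood at 56.8, 56.1 and 55.7 CPM and 262, 314 and 204 CPM in the knockout (interaction 2.06, SE 0.27, edgeR adjusted p = 0.00227). TNFAIP3, the ubiquitin-editing inhibitor A20, went from 21.2, 16.6 and 15.3 CPM to 81.1, 72.3 and 105 CPM in the knockout, and SOD2, the mitochondrial superoxide dismutase, from 125, 93.4 and 82.8 CPM to 538, 449.5 and 845 CPM. These interactions were 2.06 and 2.41. NFKBIA, NFKBIZ and TNIP1 followed at 1.04, 1.5 and 1.20. The subunits RELA, RELB, NFKB1, NFKB2 and REL had interactions of 0.28, 0.73, 0.07, 0.54 and -1.04, none of them called.

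Of the 12 genes with the highest interactions among those of at least 5 CPM, 7 that are in none of the lists are described here together, an order chosen after their values were seen. LCN2 (ENSG00000148346, chromosome 9, 128149071 to 128153455), lipocalin-2, which binds bacterial iron carriers, stood at 14.1, 16.7 and 16.1 CPM in the lone and 189.6, 262 and 194 CPM in the co-cultured knockout and at 137, 99.97 and 138 CPM and 74.3, 93.1 and 145 CPM in the control (interaction 4.04, SE 0.34, edgeR adjusted p = 6.68e-05). SAA1 (ENSG00000173432, chromosome 11, 18266174 to 18269977), serum amyloid A, stood at 0.931, 0.946 and 0.608 CPM and 14.3, 19.2 and 14.3 CPM in the knockout (interaction 3.87, SE 0.43, edgeR adjusted p = 0.00082), and reads of its near copy SAA2 may be mixed with it. SLPI (ENSG00000124107, chromosome 20, 45252239 to 45254564), a secreted inhibitor of neutrophil elastase, stood at 1.19, 2.39 and 2.86 CPM and 33.5, 45.7 and 27.5 CPM (interaction 3.82, SE 0.43, edgeR adjusted p = 0.00089). LCN2, SAA1 and SLPI were lower in every lone knockout than in every lone control library, and in co-culture all 3 were above all 6 control libraries. CFB (ENSG00000243649, chromosome 6, 31945650 to 31952084), complement factor B, stood at 2.07, 1.39 and 1.03 CPM and 17, 16.9 and 16.8 CPM (interaction 3.87, SE 0.43, edgeR adjusted p = 0.00082), and its exons overlap those of C2. LTB (ENSG00000227507, chromosome 6, 31580525 to 31582522), the membrane cytokine lymphotoxin beta, stood at 0.127, 0.349 and 0.304 CPM and 4.14, 2.86 and 2.13 CPM in the knockout and at 3.53, 5.91 and 5.85 CPM and 2.08, 3.9 and 5.54 CPM in the control (interaction 3.95, SE 0.63, edgeR adjusted p = 0.00638). MUC5B (ENSG00000117983, chromosome 11, 1223066 to 1262172), a gel-forming airway mucin, stood at 1.27, 1.29 and 1.22 CPM and 15.7, 16.5 and 12.5 CPM in the knockout and at 58.6, 28.3 and 69.4 CPM and 13.7, 33.3 and 57.4 CPM in the control (interaction 4.14, SE 0.64, edgeR adjusted p = 0.00551). The control libraries of MUC5B thus spread widely, and its co-cultured knockout level overlapped the lowest of them. CLEC4E (ENSG00000166523, chromosome 12, 8533305 to 8540963), the C-type lectin receptor Mincle, stood at 0.55, 0.597 and 0.183 CPM and 7.98, 8.35 and 10.3 CPM in the knockout and under 1 CPM in all control libraries (interaction 5.04, SE 0.70, edgeR adjusted p = 0.00324). Of these 7 genes LCN2 and SLPI met the bound on the control arm, and for the other 5 the control interval reached past 1 log2 unit.

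Several immediate-early transcription factors were low in the lone knockout and rose in its co-culture. Of 24 members tested, 8 had a higher interaction and 0 a lower one (median 0.71), 10 rose in the knockout arm, and 0 were called in the control. Among all genes tested the interaction was higher in 1.51%, and 5.97% rose in the knockout arm. In all 8 the lone knockout lay below each lone control library, as in 67.2% of the 253 higher genes. For ATF3 the margin was 11.196 against 11.204 CPM. The higher calls ranged from 5, without replicate 2 of the lone knockout, to 11 without replicate 3 of the co-cultured knockout, where 1 lower call was added. GC offsets gave 10 higher calls and 1 lower call and a median of 0.45. The median GC content of this list was 58.4%, against 50.9% in all genes. EGR1 (ENSG00000120738, chromosome 5, 138465490 to 138469315), a zinc finger factor, stood at 0.677, 0.797 and 1.1 CPM in the lone and 24.6, 18.8 and 19.2 CPM in the co-cultured knockout, against 56.1, 69 and 65.1 CPM and 63.2, 46.9 and 51.6 CPM in the control. Its interaction was 4.86, SE 0.28, edgeR adjusted p = 4.78e-06, with a control difference of -0.24 (95% interval -0.60 to 0.13). Every co-cultured knockout library was thus above the lone knockout and below every control library. ATF3 (ENSG00000162772, chromosome 1, 212565334 to 212620777), a stress-induced factor, stood at 9.06, 8.02 and 11.2 CPM and 53.5, 47.3 and 44 CPM in the knockout and at 11.7, 13.3 and 11.2 CPM and 14.5, 13.5 and 13.4 CPM in the control (interaction 2.17, SE 0.23, edgeR adjusted p = 0.000491), and in co-culture it passed the control level. FOS and FOSB, partners of JUN in AP-1, had interactions of 2.48 and 2.32, and the nuclear receptor NR4A1 of 2.11. EGR2 and EGR4 had only 2 and 3 counts in the lone knockout, so their values depend on few reads. JUN, JUNB and MYC had interactions of 0.40, 0.24 and -0.28 and were not called. ARC, an activity-regulated gene that is also an immediate-early target, stood at 2.62, 2.14 and 2.49 CPM and 28.6, 26.7 and 15.6 CPM in the knockout and at 23.6, 33.1 and 36.3 CPM and 17.9, 21.3 and 27.7 CPM in the control (interaction 3.76, SE 0.37, edgeR adjusted p = 0.000398).

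The EGR1 promoter is printed because it holds 2 copies of the CArG box, the letters bound by serum response factor at serum-induced genes. They are in capitals, at 105 and 83 bases before the gene start. The window is chr5:138465229-138465528, plus strand, GRCh38.p14, from RefSeq. Of the 7 matched promoters of called immediate-early members EGR1 alone held a CArG box, against 1.09% of promoters of tested genes and 1.6% of those of the higher genes.
EGR1: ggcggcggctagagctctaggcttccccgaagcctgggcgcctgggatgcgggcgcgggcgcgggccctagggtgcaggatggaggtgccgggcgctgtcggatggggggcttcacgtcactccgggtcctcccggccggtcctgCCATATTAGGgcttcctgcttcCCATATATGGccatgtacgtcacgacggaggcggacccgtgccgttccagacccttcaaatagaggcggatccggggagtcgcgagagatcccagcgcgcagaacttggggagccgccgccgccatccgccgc

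Of 18 feedback and target genes of MAP kinase signalling 3 had a higher interaction (median 0.62), 6 rose in the knockout arm, and all 18 control intervals lay within 1 log2 unit. Among all genes tested the interaction was higher in 1.51%, and 5.97% rose in the knockout arm. GC offsets gave 6 higher calls and 1 lower call in this list and a median of 0.41. In the MAPK feedback list higher calls numbered 1 without replicate 2 of the lone control, replicates 1 and 2 of the co-cultured control, replicates 1 and 2 of the lone knockout, or replicate 1 of the co-cultured knockout; 6 without replicate 3 of the co-cultured knockout; lower calls, otherwise 0, numbered 3 without replicate 3 of the co-cultured knockout. DUSP6 (ENSG00000139318, chromosome 12, 89347232 to 89353271), a phosphatase of ERK, stood at 5.97, 4.58 and 5.42 CPM and 15.5, 12.2 and 17.1 CPM in the knockout and at 70.8, 74.3 and 65.5 CPM and 74.7, 64 and 56.9 CPM in the control (interaction 1.59, SE 0.23, edgeR adjusted p = 0.00398). It remained below every control library. IER3, an early response gene, stood at 76.9, 86.1 and 98.5 CPM and 221, 257 and 171 CPM in the knockout (interaction 1.44, SE 0.27, edgeR adjusted p = 0.018), and DUSP5 had an interaction of 1.08. The call of IER3 is counted in the immediate-early list as well. IER3 was no longer called without replicate 2 of the lone control, replicates 1 and 2 of the co-cultured control, replicates 1 and 2 of the lone knockout, or replicate 1 of the co-cultured knockout (edgeR adjusted p up to 0.0694). Of 10 tested EGFR ligands and receptors only AREG, the ligand amphiregulin, was called: 14.4, 13.4 and 14.2 CPM and 33, 27.1 and 33.8 CPM in the knockout, 68.4, 61.6 and 52.3 CPM and 62.6, 62.7 and 65.1 CPM in the control (interaction 1.09, SE 0.19, edgeR adjusted p = 0.0116). AREG was no longer called without replicate 1 of the co-cultured knockout (edgeR adjusted p up to 0.0517). In the EGFR ligands and receptors list higher calls numbered 0 without replicate 1 of the co-cultured knockout; 2 without replicate 3 of the co-cultured knockout; lower calls, otherwise 0, numbered 2 without replicate 3 of the co-cultured knockout; 1 without replicate 1 of the lone control. HBEGF, another ligand, had an interaction of 1.08 (edgeR adjusted p = 0.0796), and EGFR of -1.17 (edgeR adjusted p = 0.153).

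**Figure D4:**
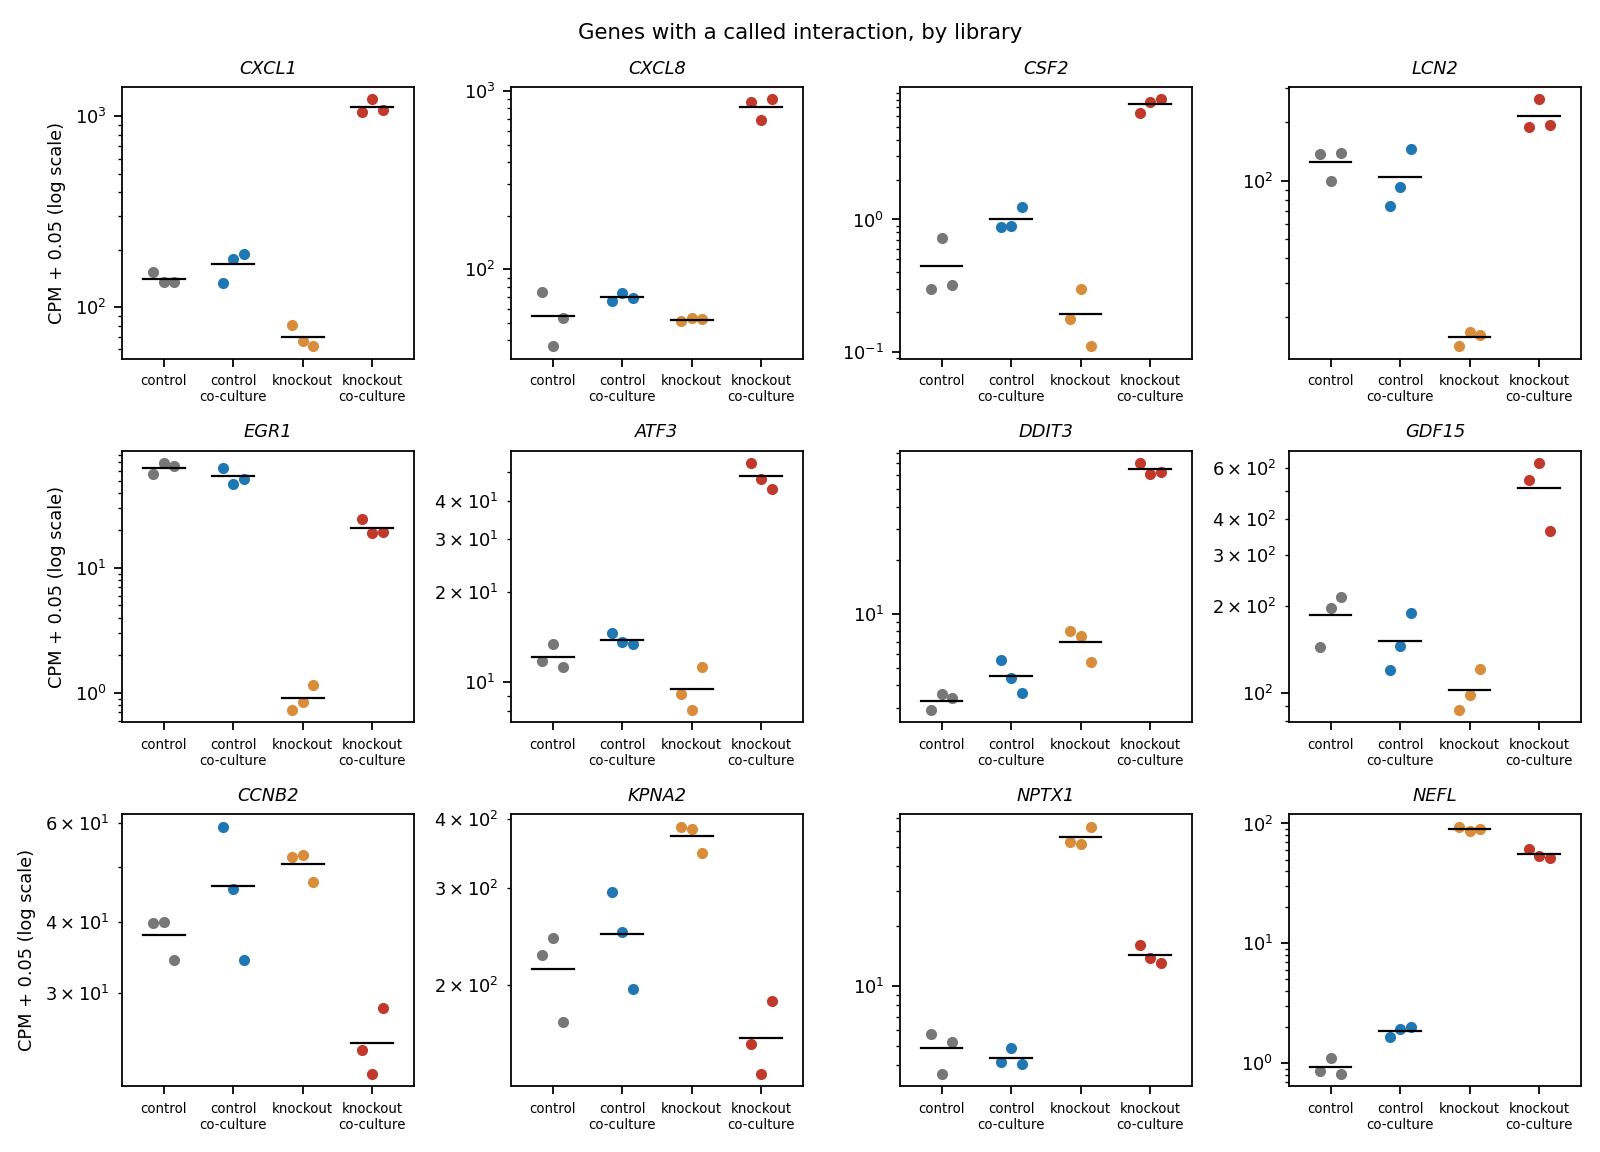
Genes with a called interaction in the 12 libraries, as CPM plus 0.05 on log axes that differ between panels; each point is 1 library and each bar the mean of 3. CXCL1, CXCL8, CSF2, LCN2, ATF3, DDIT3 and GDF15 end above all 6 control libraries in the co-cultured knockout, and EGR1 ends between the lone knockout and the control.

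Among matrix proteases and the plasminogen system, 4 of 17 members tested had a higher and 1 a lower interaction (median 0.41), the same 5 were called in the knockout arm, and single libraries left out gave 3 to 5 higher calls. Over all genes tested the interaction was higher in 1.51% and lower in 0.286%, and 11.4% were called in the knockout arm. GC offsets gave 4 higher and 2 lower calls in this list and a median of 0.11. MMP7, the epithelial protease matrilysin, stood at 12, 12.8 and 12 CPM in the lone and 38.3, 35.3 and 37.4 CPM in the co-cultured knockout (interaction 1.54, SE 0.23, edgeR adjusted p = 0.00414). PLAU and PLAUR, urokinase and its receptor, had interactions of 0.98 and 1.26. PLAT, tissue plasminogen activator, stood at 5.25, 5.73 and 6.21 CPM and 15, 15.8 and 13.3 CPM (interaction 1.46, SE 0.23, edgeR adjusted p = 0.00636). SERPINE2, an inhibitor of these proteases, was the 1 lower member without offsets, at 817, 734 and 770.4 CPM alone and 377, 326 and 421 CPM in co-culture (interaction -1.21, SE 0.20, edgeR adjusted p = 0.00693). All 5 met the bound on the control.

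Of 23 collagen and matrix genes 2 were called, while 4 rose and 5 fell in the knockout arm (interaction median -0.02). Over all genes tested 1.8% were called in the interaction, and 5.97% rose and 5.4% fell in the knockout arm. GC offsets gave 3 higher and 5 lower calls in this list and a median of -0.31. In the collagens and matrix list higher calls numbered 1 without replicate 3 of the lone control, replicate 2 of the lone knockout, or replicate 1 of the co-cultured knockout; 4 without replicate 3 of the co-cultured knockout; lower calls, otherwise 0, numbered 5 without replicate 3 of the co-cultured knockout; 1 without replicate 1 of the lone control or replicate 1 of the co-cultured control. COL5A3 (ENSG00000080573, chromosome 19, 9959561 to 10010471), a fibrillar collagen chain, had the highest interaction among genes of at least 5 CPM: 0, 0.0498 and 0.243 CPM alone, 7.16, 5.67 and 4.78 CPM in co-culture and at most 0.612 CPM in the control (interaction 5.08, SE 1.01, edgeR adjusted p = 0.0225). The lone knockout value rests on 5 counts and the exons overlap an unnamed gene. COL5A3 was no longer called without replicate 3 of the lone control, replicate 2 of the lone knockout, or replicate 1 of the co-cultured knockout (edgeR adjusted p up to 0.152). LAMB3, a chain of laminin-332 in basement membranes, stood at 15.8, 16.7 and 20.1 CPM and 70.5, 82.5 and 61.1 CPM in the knockout and at 71.9, 83.2 and 94.9 CPM and 96.4, 108 and 122 CPM in the control (interaction 1.64, SE 0.23, edgeR adjusted p = 0.00324).

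Stress genes of the ATF4 and unfolded protein branches moved in part. Of 20 members 4 had a higher interaction (median 0.53), and 8 rose in the knockout arm. Among all genes tested the interaction was higher in 1.51%, and 5.97% rose in the knockout arm. GC offsets gave 8 higher and 0 lower calls in this list and a median of 0.35. In the ATF4 and unfolded protein response list higher calls numbered 2 without replicate 2 of the lone control, replicates 1 and 2 of the co-cultured control, replicates 1 and 2 of the lone knockout, or replicate 1 of the co-cultured knockout; 7 without replicate 3 of the co-cultured knockout; lower calls, otherwise 0, numbered 2 without replicate 3 of the co-cultured knockout. DDIT3 (ENSG00000175197, chromosome 12, 57516588 to 57521737), the factor CHOP, stood at 7.96, 7.47 and 5.35 CPM in the lone and 70.2, 60.9 and 62.7 CPM in the co-cultured knockout and at 2.85, 3.51 and 3.33 CPM and 5.46, 4.36 and 3.55 CPM in the control (interaction 2.76, SE 0.29, edgeR adjusted p = 0.000491). Its exons overlap those of MARS1 and MBD6. XBP1, a factor of the unfolded protein response, stood at 43.4, 44.6 and 47.6 CPM and 97.7, 94.1 and 84.7 CPM in the knockout (interaction 1.15, SE 0.17, edgeR adjusted p = 0.0039). TRIB3, a pseudokinase induced with CHOP, had an interaction of 1.55. ATF4 itself and the chaperone HSPA5 had interactions of 0.21 and 0.12 and were not called.

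Of 30 p53 target genes 5 had a higher interaction and 0 a lower one (median 0.39), and 11 rose in the knockout arm. Among all genes tested the interaction was higher in 1.51%, and 5.97% rose in the knockout arm. GC offsets gave 10 higher and 0 lower calls in this list and a median of 0.43. In the p53 targets list higher calls numbered 3 without replicate 2 of the lone control, replicates 1 and 2 of the co-cultured control, replicates 1 and 2 of the lone knockout, or replicate 1 of the co-cultured knockout; 13 without replicate 3 of the co-cultured knockout; lower calls, otherwise 0, numbered 4 without replicate 3 of the co-cultured knockout. GDF15 (ENSG00000130513, chromosome 19, 18374731 to 18389176), a stress-induced secreted factor, stood at 87.3, 98.6 and 122 CPM in the lone and 547, 626 and 363 CPM in the co-cultured knockout and at 144, 197 and 216 CPM and 120.0, 145 and 189 CPM in the control (interaction 2.61, SE 0.33, edgeR adjusted p = 0.00182). BTG2, which slows cell division, stood at 47.7, 49.2 and 53.4 CPM and 119.5, 115 and 105 CPM (interaction 1.21, SE 0.21, edgeR adjusted p = 0.00982). CDKN1A, the cyclin-dependent kinase inhibitor p21, stood at 957, 1153 and 1282 CPM and 2695, 2946 and 1916 CPM in the knockout and at 177, 206 and 259 CPM and 183, 188 and 224 CPM in the control (interaction 1.26, SE 0.28, edgeR adjusted p = 0.0402). BBC3, which encodes the death activator PUMA, and SESN2, a target of ATF4 as well as p53, had interactions of 1.81 and 1.38. MDM2 and ZMAT3, also direct targets, had interactions of -0.89 and -1.55 and were not called (edgeR adjusted p = 0.444 and 0.214).

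In the 5 interferon response genes called in the interaction, the lone knockout lay below each lone control library, and the 5 rose in co-culture. Such a low start held for 67.2% of all 253 higher genes, which were chosen by a contrast that uses the lone knockout. Of 20 members tested out of 25, 5 had a higher interaction (median 1.10) and 10 rose in the knockout arm. Among all genes tested the interaction was higher in 1.51%, and 5.97% rose in the knockout arm. GC offsets gave 8 higher and 0 lower calls in this list and a median of 0.86. In the interferon response list higher calls numbered 1 without replicate 2 of the co-cultured control or replicate 1 of the co-cultured knockout; 2 without replicate 2 of the lone control or replicate 1 of the co-cultured control; 3 without replicate 3 of the lone control or replicates 1 and 2 of the lone knockout; 9 without replicate 3 of the co-cultured knockout; lower calls, otherwise 0, numbered 1 without replicate 3 of the co-cultured knockout. OAS1, a sensor of double-stranded RNA, stood at 23.8, 25.8 and 22.4 CPM in the lone and 58.6, 65.3 and 54.1 CPM in the co-cultured knockout and at 28.3, 31.4 and 33.8 CPM and 24.8, 27.6 and 34.9 CPM in the control (interaction 1.41, SE 0.22, edgeR adjusted p = 0.00493). OASL, its relative, stood at 1.35, 2.04 and 2.13 CPM and 5.91, 6.59 and 4.4 CPM in the knockout and at 10.7, 14.8 and 13.6 CPM and 12.5, 9.22 and 10.9 CPM in the control (interaction 1.89, SE 0.35, edgeR adjusted p = 0.0146). OASL was no longer called without replicate 2 of the lone control, replicate 2 of the co-cultured control, or replicate 1 of the co-cultured knockout (edgeR adjusted p up to 0.0636). IFI6, MX1 and IRF7 had interactions of 2.03, 1.62 and 1.70. ISG15 and IFIT1 had 1.27 and 1.29 and were not called (edgeR adjusted p = 0.118 and 0.11).

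Mitosis genes fell in the knockout arm. Of 30 members, 21 fell and 0 rose there, 0 were called in the control, and 6 had a lower interaction (median -1.03). Among all genes tested 5.4% fell in the knockout arm and 0.286% had a lower interaction. In the mitosis list lower calls numbered 1 without replicate 3 of the lone control, replicate 2 of the co-cultured control, replicate 2 of the lone knockout, or replicate 1 of the co-cultured knockout; 2 without replicate 2 of the lone control, replicate 1 of the co-cultured control, or replicate 1 of the lone knockout; 3 without replicate 3 of the lone knockout or replicate 2 of the co-cultured knockout; 18 without replicate 3 of the co-cultured knockout. The GC offsets also gave 18. The list had a median GC content of 44.9%, below that of all genes. CCNB1 (ENSG00000134057, chromosome 5, 69167010 to 69178245), cyclin B1, which drives entry into mitosis, stood at 154, 169.8 and 172 CPM in the lone and 79.7, 78 and 86.2 CPM in the co-cultured knockout and at 166, 181 and 160.4 CPM and 227, 180.4 and 154 CPM in the control (interaction -1.17, SE 0.21, edgeR adjusted p = 0.0112). With the GC offsets CCNB1 was no longer called, at -0.61 (edgeR adjusted p = 0.138). CCNB2 (ENSG00000157456, chromosome 15, 59105078 to 59125045), cyclin B2, stood at 52.1, 52.5 and 47.1 CPM and 23.7, 21.5 and 28.1 CPM in the knockout and at 39.8, 40.0 and 34.2 CPM and 59, 45.8 and 34.3 CPM in the control (interaction -1.34, SE 0.26, edgeR adjusted p = 0.0204). CCNB2 was no longer called without replicates 2 and 3 of the lone control, replicate 2 of the co-cultured control, replicates 1 and 2 of the lone knockout, or replicate 1 of the co-cultured knockout (edgeR adjusted p up to 0.0746). BUB1 (ENSG00000169679, chromosome 2, 110637698 to 110678114), a spindle checkpoint kinase, stood at 33.6, 29.5 and 28.4 CPM and 8.54, 7.19 and 14.4 CPM (interaction -1.69, SE 0.38, edgeR adjusted p = 0.046). The call of BUB1 was lost in 9 of the 12 leave-one-out fits (edgeR adjusted p up to 0.151) and held without replicate 1 of the lone control, replicate 3 of the co-cultured control, or replicate 3 of the co-cultured knockout. KIF20A, TPX2 and CDC20, which serve spindle and anaphase, had interactions of -1.01, -1.11 and -1.21. In all 6 called members each co-cultured knockout library lay below all 6 control libraries. CDK1, the partner of the B cyclins, had an interaction of 0.37 and was not called.

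CCNB2 is printed as an example of the promoters of the lower genes, with CCAAT boxes and the letters TTTGAA of the cell cycle homology region in capitals. These 2 motifs were chosen after the lower genes were seen. They were searched on both strands and do not overlap in this window. CCAAT stood in 5 of 5 matched promoters of the called mitosis members, in 47.4% of the 38 matched for all lower genes and in 36.2% of those of the genes tested. TTTGAA stood in 23.7% of the lower, 9.04% of the higher and 9.47% of the tested genes' promoters. The window is chr15:59104896-59105195, plus strand, GRCh38.p14, from RefSeq.
CCNB2: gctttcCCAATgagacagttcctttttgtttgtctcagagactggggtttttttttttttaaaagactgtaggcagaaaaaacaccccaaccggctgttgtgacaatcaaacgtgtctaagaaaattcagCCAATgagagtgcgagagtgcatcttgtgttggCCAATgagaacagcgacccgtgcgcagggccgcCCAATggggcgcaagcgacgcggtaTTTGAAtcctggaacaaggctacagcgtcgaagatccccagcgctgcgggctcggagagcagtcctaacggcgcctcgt

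In the lists of DNA replication and nucleotide metabolism, which do not hold TYMS, 1 gene was called in the interaction, against 1.8% of all genes tested. Of 30 DNA replication genes, ORC1, of the origin recognition complex, was the 1 called: 19.9, 21.7 and 21.8 CPM in the lone and 10.8, 9.63 and 11.6 CPM in the co-cultured knockout (interaction -0.96, SE 0.21, edgeR adjusted p = 0.0402). In the DNA replication list lower calls numbered 0 without replicates 1, 2 and 3 of the lone control, replicates 1 and 2 of the co-cultured control, replicates 1, 2 and 3 of the lone knockout, or replicates 1 and 2 of the co-cultured knockout; 6 without replicate 3 of the co-cultured knockout. With GC offsets 1 higher and 5 lower members were called. The call of ORC1 was lost in 10 of the 12 leave-one-out fits (edgeR adjusted p up to 0.125) and held without replicate 3 of the co-cultured control or replicate 3 of the co-cultured knockout. MCM6, of the replicative helicase, had an interaction of -1.02 (edgeR adjusted p = 0.16), and the list median was -0.08. Of 30 nucleotide metabolism genes 0 were called by edgeR in the interaction, in the knockout arm or in the control arm, with 7, 7 and 0 at an unadjusted p under 0.05 in these contrasts and 0 called by DESeq2 in the interaction. The median interaction was -0.01, and all 30 control intervals lay within 1 log2 unit. With GC offsets 2 higher and 2 lower nucleotide metabolism genes were called in the interaction. Without replicate 3 of the co-cultured knockout 1 higher and 5 lower were called. CTPS2 and CTPS1, which make CTP, had the smallest p of that list, at interactions of -0.77 and -0.42 (edgeR adjusted p = 0.179 and 0.194). TK1, which salvages thymidine, had an interaction of 0.63. TYMS was itself among the lower genes, with an interaction of -0.89, SE 0.15, edgeR adjusted p = 0.0107.

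Of the 12 genes with the lowest interactions among those of at least 5 CPM, BUB1 is a mitosis gene, and the 8 described next are in none of the lists. NPTX1 (ENSG00000171246, chromosome 17, 80467148 to 80477843), a secreted neuronal pentraxin, stood at 53.2, 52 and 63.2 CPM in the lone and 16.1, 13.8 and 13 CPM in the co-cultured knockout and at 5.7, 3.57 and 5.19 CPM and 4.1, 4.82 and 3.99 CPM in the control (interaction -1.81, SE 0.27, edgeR adjusted p = 0.00414). FBN1 (ENSG00000166147, chromosome 15, 48408306 to 48645849), fibrillin-1 of elastic fibres, stood at 89.4, 72.7 and 63 CPM and 22.9, 20.1 and 35.9 CPM in the knockout and under 5 CPM in the control (interaction -1.75, SE 0.38, edgeR adjusted p = 0.0353). GFRA1 (ENSG00000151892, chromosome 10, 116056925 to 116273467), the GDNF receptor, stood at 37.9, 31.6 and 29.3 CPM and 11.6, 9.81 and 12.8 CPM in the knockout and under 5 CPM in the control (interaction -1.66, SE 0.30, edgeR adjusted p = 0.0134). NPTX1, FBN1 and GFRA1 were all higher in the lone knockout than in any control library and stayed higher in co-culture. KPNA2 (ENSG00000182481, chromosome 17, 68035519 to 68046842), a nuclear import receptor that cycles with cell division, stood at 387, 383 and 347 CPM and 156, 138 and 187 CPM (interaction -1.42, SE 0.26, edgeR adjusted p = 0.0136). SLC4A8 (a bicarbonate transporter), EFEMP1 (a fibulin of the matrix), SNHG4 (a small nucleolar RNA host gene) and JADE1 (a chromatin reader) had interactions of -1.87, -1.76, -1.59 and -1.47. Exons of SLC4A8 overlap GALNT6, those of SNHG4 overlap MATR3 and SIL1, and those of JADE1 overlap SCLT1. FBN1, SLC4A8 and SNHG4 each lost their call in 10 of the 12 leave-one-out fits, at edgeR adjusted p-values up to 0.119, 0.113 and 0.135. All 3 held it without replicate 3 of the co-cultured knockout, FBN1 also without replicate 1 of the lone control, and SLC4A8 and SNHG4 also without replicate 3 of the co-cultured control. The call of JADE1 was lost in 7 of the 12 leave-one-out fits (edgeR adjusted p up to 0.0772) and held without replicate 1 of the lone control, replicate 3 of the co-cultured control, replicate 3 of the lone knockout, or replicates 2 and 3 of the co-cultured knockout. The call of EFEMP1 was lost in 8 of the 12 leave-one-out fits (edgeR adjusted p up to 0.111) and held without replicate 1 of the lone control, replicate 3 of the co-cultured control, replicate 3 of the lone knockout, or replicate 3 of the co-cultured knockout. KPNA2 was no longer called without replicate 2 of the co-cultured control or replicate 1 of the co-cultured knockout (edgeR adjusted p up to 0.0568). GFRA1 was no longer called without replicate 2 of the co-cultured control (edgeR adjusted p up to 0.0585). NPTX1 kept its call in each of the 12 leave-one-out fits.

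In 5 named genes the control arm had the larger difference, so the interaction rests on movement of the control as well. PRTG (ENSG00000166450, chromosome 15, 55611546 to 55743090), the developmental receptor protogenin, stood at 0.992, 0.801 and 0.383 CPM in the lone and 1.48, 1.65 and 1.55 CPM in the co-cultured control and at 10.7, 8.71 and 7.48 CPM and 4.74, 3.7 and 6.01 CPM in the knockout (interaction -2.02, SE 0.44, edgeR adjusted p = 0.0361). NEFL stood at 93.8, 86.8 and 90.7 CPM and 61.3, 53.1 and 51.9 CPM in the knockout, with an interaction of -1.77, SE 0.23, edgeR adjusted p = 0.00191. MARCHF4, a membrane ubiquitin ligase, stood at 2.6, 2.28 and 1.97 CPM and 2.85, 5.05 and 4.2 CPM in the control and at 137, 145 and 150.0 CPM and 96.1, 101 and 86.2 CPM in the knockout (interaction -1.45, SE 0.26, edgeR adjusted p = 0.0134). CXCR4, the receptor of the chemokine CXCL12, went the other way, at 0.868, 0.924 and 0.82 CPM and 0.416, 0.574 and 0.326 CPM in the control and 6.31, 4.88 and 6.33 CPM and 9.01, 9.07 and 10.6 CPM in the knockout (interaction 1.68, SE 0.36, edgeR adjusted p = 0.0355). KCNMA1, a calcium-activated potassium channel, had a control difference of 0.57 (95% interval 0.25 to 0.90) and an interaction of -1.01, SE 0.20, edgeR adjusted p = 0.0229. In none of the 5 was the control difference called by edgeR, and all 5 were lower in every control than in every knockout library. PRTG and CXCR4 lost their call in 10 of the 12 leave-one-out fits, at edgeR adjusted p-values up to 0.114 and 0.108. Both held it without replicate 3 of the co-cultured knockout, PRTG also without replicate 1 of the lone control and CXCR4 also without replicate 2 of the co-cultured control. MARCHF4 was no longer called without replicate 2 of the lone control or replicate 2 of the co-cultured control (edgeR adjusted p up to 0.0539). The call of KCNMA1 was lost in 7 of the 12 leave-one-out fits (edgeR adjusted p up to 0.0933) and held without replicate 1 of the lone control, replicates 1 and 3 of the co-cultured control, or replicates 2 and 3 of the co-cultured knockout.

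The lists not yet described held 0 to 2 interaction calls each. Of 22 hypoxia and glycolysis genes ADM and ENO2 had a higher interaction, at 0.89 and 1.10, and 6 rose in the knockout arm. Among all genes tested the interaction was higher in 1.51%, and 5.97% rose in the knockout arm. In the hypoxia and glycolysis list higher calls numbered 0 without replicate 2 of the lone control, replicate 2 of the co-cultured control, replicates 1 and 2 of the lone knockout, or replicates 1 and 2 of the co-cultured knockout; 1 without replicate 3 of the lone control, replicate 1 of the co-cultured control, or replicate 3 of the lone knockout; 4 without replicate 1 of the lone control; 7 without replicate 3 of the co-cultured knockout. ADM was no longer called without replicate 2 of the lone control, replicate 2 of the co-cultured control, replicates 1 and 2 of the lone knockout, or replicates 1 and 2 of the co-cultured knockout (edgeR adjusted p up to 0.073). With GC offsets ADM was no longer called either, at 0.53 (edgeR adjusted p = 0.122). The call of ENO2 was lost in 9 of the 12 leave-one-out fits (edgeR adjusted p up to 0.0741) and held without replicate 1 of the lone control, replicate 3 of the co-cultured control, or replicate 3 of the co-cultured knockout. Of 10 connexins and pannexins, which form the channels of gap junctions and hemichannels, GJB5 was called at 0.0847, 0.149 and 0.183 CPM and 0.69, 0.656 and 0.522 CPM in the knockout (interaction 2.32, SE 0.49, edgeR adjusted p = 0.0321), resting on 8 counts in the lone knockout. In the connexins and pannexins list higher calls numbered 0 without replicates 2 and 3 of the lone control, replicate 2 of the co-cultured control, replicates 1 and 2 of the lone knockout, or replicates 1 and 2 of the co-cultured knockout; 2 without replicate 1 of the lone control or replicate 3 of the co-cultured knockout; lower calls, otherwise 0, numbered 2 without replicate 3 of the co-cultured knockout. The call of GJB5 was lost in 8 of the 12 leave-one-out fits (edgeR adjusted p up to 0.131) and held without replicate 1 of the lone control, replicates 1 and 3 of the co-cultured control, or replicate 3 of the co-cultured knockout. GJA1, the most widely expressed connexin, had an interaction of -0.59 and was not called.

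In 8 of the 23 lists 0 members were called in the interaction, against 1.8% of all genes tested. Besides nucleotide metabolism these were 23 NRF2 targets, 26 oxidative phosphorylation genes, 30 ribosomal proteins, 23 YAP and TEAD targets, 15 integrins, 22 TGF-beta, BMP and ID genes, and 21 long transcripts of spindle, centrosome and chromatin. At an unadjusted p under 0.05 the interaction held 9, 2, 1, 9, 5, 5 and 5 of their members, and DESeq2 called 1, 0, 0, 3, 3, 1 and 2. In the same order, GC offsets gave 0, 0, 0, 1, 2, 1 and 0 higher and 3, 0, 0, 6, 2, 3 and 4 lower calls. Without replicate 3 of the co-cultured knockout the 8 lists held 0 to 13 calls, the 2 lists with fewest being ribosomal proteins with 0 and oxidative phosphorylation with 2. Ribosomal proteins and oxidative phosphorylation had 0 calls in either arm, with interaction medians of 0.18 and 0.08, and all their control intervals lay within 1 log2 unit. YAP and TEAD targets had a median of -0.50 and 8 members that fell in the knockout arm, where 5.4% of all genes tested fell. The long transcripts had a median of -0.91, with 16 of 21 lower in the knockout arm and 0 called in the control, where their median was -0.57. Their median GC content was 41.6%, and 13 of them were called lower without replicate 3 of the co-cultured knockout. In the NRF2 list ME1 and HMOX1 had the smallest p, at -1.14 and -0.83, with edgeR adjusted p-values of 0.127 and 0.128. PTPN14 and AXL led the YAP list at -1.52 and -0.72, ITGB3 and ITGA11 the integrins at 1.91 and -1.55, and ID2 and TGFB1 the TGF-beta list at -0.78 and 0.92, none of them called. NDUFS1 and NDUFB3 stood at -0.64 and 0.57, RPL11 and RPL14 at -0.53 and -0.49, and HERC1 and KMT2A at -1.35 and -1.13, likewise not called.

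**Figure D5:**
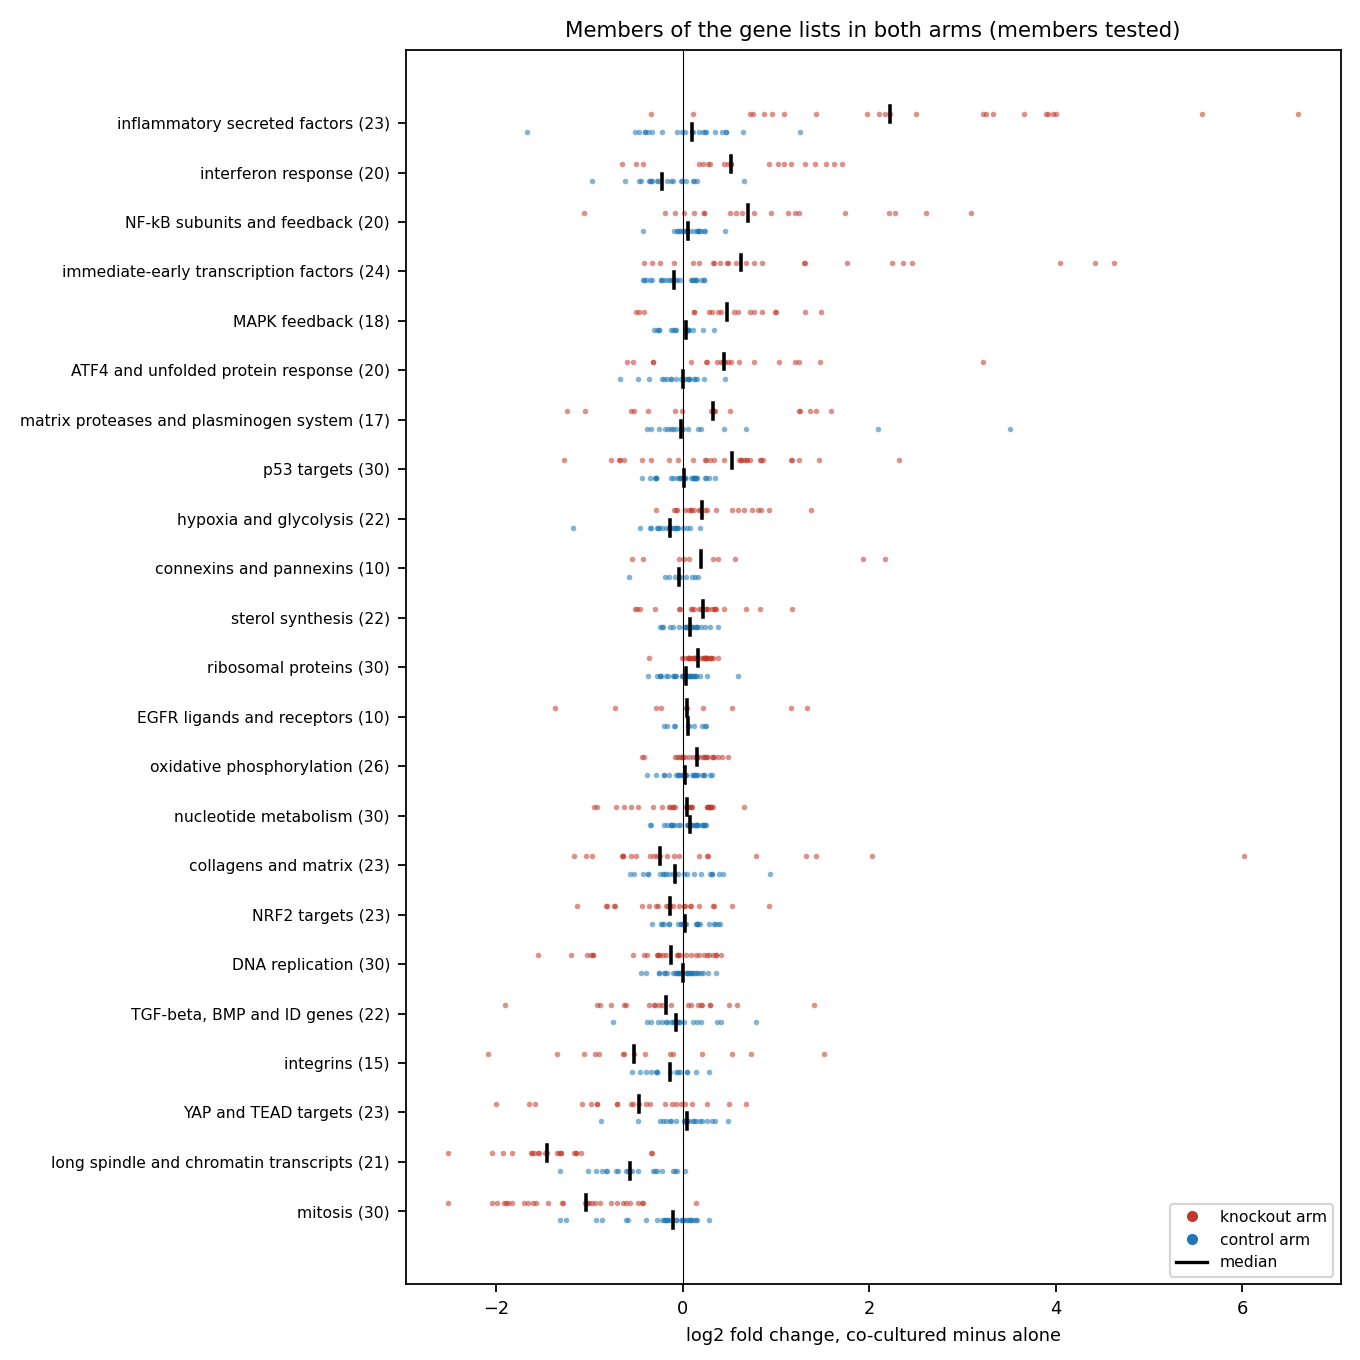
Co-culture difference (log2) of each tested member of the 23 gene lists in the knockout arm (red) and in the control arm (blue), with the median of each as a black bar and the number tested in parentheses. Inflammatory factors reach furthest to the right in the knockout arm, with 18 of 23 called, mitosis genes lie to the left with 21 of 30 called, and no member is called in the control arm.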

How the data were processed

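RNA of 12 libraries labelled A549 was sequenced and counted by the authors, who deposited raw whole-number counts for 61541 genes, with no normalization. Per the labels' protocols, RNA was isolated as total RNA (miRNeasy) and NEBNext Ultra was the library kit. Per the submitters' processing notes, the tools were FastQC, STAR 2.7.9a, featureCounts, R 4.2.1 and DESeq2 1.36.0, with GRCh38. The annotation and the strand setting of the counting are not given in the sources used here. For the re-analysis 42093 of the IDs were paired with a symbol from reference gene names, 48 of them through GENCODE 29. In GENCODE 29 (GRCh38), which gave gene positions and overlaps, 58366 were found.

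Counts were tested in R 4.3.3 with edgeR 4.0.16: low genes were removed by filterByExpr over the 4 groups, leaving 16768, libraries were scaled by TMM, and a robust quasi-likelihood fit over 12 libraries gave the interaction and the co-culture contrast of each genotype, with Benjamini-Hochberg adjustment over all genes tested and 0.05 as the threshold. CPM values are counts per 1000000 of the TMM-scaled library. The steps were tested on simulated data. Alternatives were RLE scaling, library size alone, no low-count filter, a required change of at least 1.5-fold, GC offsets per library, the replicate number as a block, fits of 2 groups, each library left out, and DESeq2 1.42.0. A number shared between groups was not taken as a pairing.

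Text names the 12 highest and 12 lowest called genes (of 260 with a symbol, at least 5 CPM in 1 group and no overlap between the knockout groups), the 2 members with the smallest p in each of 23 lists, the 4 smallest p of the control arm and called genes whose control arm was the larger. Values of a few members are not reported here. Other list members, and all genes in the closing section, were chosen for description after their values were seen. The contrast, the members and the lists were chosen with earlier results of these data known. The lists hold 522 different genes, of which 1 entry was not matched. Of the 301 called genes, 10 had 3 counts or fewer in a group, and their fold changes depend on the prior count.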

Additional observations from a re-analysis of the deposited data

Results flagged for a closer look

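The co-culture difference was tested for being unequal in knockout and control cells, and by that test 301 genes differed. In most of them the knockout arm was the larger. In the genes named here the fitted control difference was the larger in size. PRTG had an interaction of -2.02, NEFL of -1.77, MARCHF4 of -1.45 and KCNMA1 of -1.01, each with a lower mean in co-culture of the knockout and a higher one in co-culture of the control, while CXCR4 had 1.68 with the opposite arms. All 5 were far lower in the control than in the knockout libraries, and the control difference of none passed the test by itself.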

How the results depend on the processing

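No named gene changed direction under any alternative run. The interaction count of 301 was 306 with RLE scaling and 303 with library size alone. It was 1342 with no low-count filter (54.7% of them higher, against 84.1%), 92 with a required change of 1.5-fold (96.7% higher), 1426 with GC offsets (52.5%) and 878 with DESeq2 (64.5%), which held 282, 92, 284 and 292 of the 301. Leaving out single libraries gave 119 to 3623, with 33.1% higher in the last, that without replicate 3 of the co-cultured knockout. The knockout arm's 1907 became 3340 with no low-count filter, 293 with the required change, 4873 with GC offsets, 664 with the 2 knockout groups alone and 3347 with DESeq2, and 536 to 5680 without single libraries. The control arm's 0 became 2 with no low-count filter and stayed 0 otherwise. The 233 genes of the knockout only became 1071 with no low-count filter and 1292 with GC offsets, and 87 to 2975 without single libraries. The causes were not tested. With the replicate block the 3 counts were 179 (91.1% higher), 1080 and 136, and with block and GC offsets 853, 4139 and 773. Same-numbered libraries correlated over 0.1 in their deviations in 8 of 18 pairs, from -0.719 to 0.627, and correlated best with their own number in 13 of 36 cases, so the numbers were not read as pairs. Outside the co-cultured knockout, same-numbered replicates 1 and 3 correlated at 0.291 to 0.627 and replicates 2 at -0.119 to -0.031. Replicate 3 of the co-cultured knockout instead correlated with replicate 1 of the lone control, co-cultured control and lone knockout, at 0.743, 0.454 and 0.730. Its replicate 2 did so with their replicate 3, at 0.687, 0.613 and 0.644. The block used the numbers as labelled, and a shared batch was not tested. The median interaction of all genes was 0.01, 0.10 with RLE and -0.11 with library size alone. Of the values of single genes under alternatives, 1196 kept their side of the threshold, 204 lost a call and 63 gained one, and of the counts of list members 656 stayed within 1.5 times and 218 did not. With 3 libraries a group, the median half-width of the interaction's interval was 0.80 log2 units, which limits what smaller differences can show.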

Other observations

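Genes of the complement system were in no list, and the 3 given here were chosen after their values were seen, with no count over that system. C3, the central component of complement, stood at 297, 294 and 276 CPM in the lone and 1194, 1328 and 1068 CPM in the co-cultured knockout, and at 203, 173 and 230.3 CPM and 121, 196 and 230.3 CPM in the lone and co-cultured control (interaction 2.20, SE 0.29, edgeR adjusted p = 0.00238). C1R, the protease that starts the classical cascade, stood at 42.4, 43.8 and 43.7 CPM and 162, 186 and 141 CPM in the knockout, an interaction of 2.15 (edgeR adjusted p = 0.00132). Its substrate C1S, encoded beside it on chromosome 12, had an interaction of 1.42 (edgeR adjusted p = 0.0143). In C3, C1R and C1S each co-cultured knockout library was above all control libraries, and all 3 met the bound on the control arm. Exons of C1R overlap C1RL and those of C1S overlap EMG1. The acute-phase gene SAA2, a near copy of SAA1, had an interaction of 3.89 (edgeR adjusted p = 0.00376) and stayed under 6 CPM.

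Among transcription regulators of the circadian clock, NR1D1 stood at 9.69, 11.2 and 11.8 CPM in the lone and 52.9, 46.9 and 37.4 CPM in the co-cultured knockout, against 48.0 to 70.9 CPM in the control libraries, whose range only replicate 1 of the co-cultured knockout reached (interaction 2.21, edgeR adjusted p = 0.000853). Exons of NR1D1 overlap THRA. PER1, another clock gene, stood at 7.96, 9.51 and 10 CPM and 31.2, 25.3 and 23 CPM (interaction 1.77, edgeR adjusted p = 0.0023) and remained below every control library, the lowest of which was 61.1 CPM. MKI67, the proliferation antigen Ki-67, stood at 162, 147 and 141 CPM and 38.9, 33.3 and 59.3 CPM (interaction -1.41, edgeR adjusted p = 0.0419), and LMNB1, lamin B1 of the nuclear envelope, had an interaction of -1.01 (edgeR adjusted p = 0.0406).

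The cancer-testis genes MAGEA3 and MAGEA6, near-identical copies on chromosome X between which reads can be split, were nearly silent in the lone knockout and high in the control. MAGEA6 stood at 0.296, 0.448 and 0.183 CPM in the lone and 5.26, 4.44 and 5.34 CPM in the co-cultured knockout, against 11.2 to 17.9 CPM in the 6 control libraries (interaction 3.62, edgeR adjusted p = 0.000491). MAGEA3 stood at 0.0423, 0.0498 and 0.122 CPM and 0.949, 0.567 and 0.821 CPM in the knockout, against 80.6 to 121 CPM in the control (interaction 3.36, edgeR adjusted p = 0.00417). The co-cultured knockout thus held MAGEA6 above MAGEA3 in counts, while the control held MAGEA3 above MAGEA6 in every library. Any part of reads from cells of the control type in these values was not tested. Of the epithelial markers of those cells EPCAM, CLDN7, ESRP1 and ESRP2 stayed under 1 CPM in the same libraries. KRT19 and CDH1 were higher there than in the lone knockout, and CLDN4 and ESRP2 were lower. Of all genes tested, 31.5% did not overlap between those 2 groups.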
